A study of Mus musculus with 3 samples.

Results

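Genes of the circadian clock were measured in cultured mouse astrocytes, and 10 were chosen by name: Clock, Arntl, Npas2, Per1, Per2, Per3, Cry1, Cry2, Dbp and Tef. They are 10 of 18194 genes with a probe set of their own, meaning a probe set annotated to that gene and no other. Embryonic stem cells of the mouse, labelled wild type, had been taken through 4 days of embryoid bodies, 5 to 7 days of selection in ITSFn medium and expansion as neural precursors with FGF2 and what the labels call EGF2. After 18 passages from the embryoid bodies, the growth factors were withdrawn and the cells were kept in 5% fetal bovine serum for 5 days. The total RNA of 3 such samples was labelled with biotin and read on 1 Affymetrix Mouse Genome 430 2.0 array each. The 3 samples form 1 group with no contrast. Since the labels do not say whether the cultures were separate, the p-values speak only of the spread among these 3 samples, part or all of which may be technical. The sources used here do not give the time of harvest or say whether it was the same for the 3 samples.

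The clock is a feedback loop of transcription that runs in nearly every cell of the body, including astrocytes. The proteins CLOCK and BMAL1, the product of Arntl, bind together to E-box sequences and switch on the Per and Cry genes, and the PER and CRY proteins return to the nucleus and inhibit that pair. CLOCK and BMAL1 also drive Dbp, Tef and the nuclear receptor genes Nr1d1 and Nr1d2, whose products act through D-box and RORE sequences and feed back on the core genes. A pulse of serum is a known way to bring the clocks of cultured cells into step. Each array gives 1 moment and an average over all cells of the dish, so fewer cells with a transcript and less RNA per cell cannot be told apart.

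The promoters of some members hold sequences of the kind through which the loop is known to close. RefSeq windows of GRCm38.p6, from 250 bases before to 50 after a transcription start, were present for 9 of the 10 genes (14 windows, none for Per2), and were searched on both strands for 5 motifs. These were the E-box CACGTG, the E'-box CACGTT, the D-box as TTATGTAA or TTACGTAA, the cAMP response element TGACGTCA and the RORE, the site of the REV-ERB and ROR receptors. No match overlapped another. Capitals mark the motif below, each line reads 5′ to 3′ on the strand of the gene, and an E'-box on the opposite strand reads AACGTG.
Per1 E-box, chr11:69098771-69098800, plus strand: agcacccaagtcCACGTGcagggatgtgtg
Cry1 E-box, chr10:85185097-85185126, minus strand: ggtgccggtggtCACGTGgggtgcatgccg
Cry1 E'-box, chr10:85185116-85185145, minus strand: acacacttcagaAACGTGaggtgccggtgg
Cry2 E'-box, chr2:92434218-92434247, minus strand: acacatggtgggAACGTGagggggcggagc
Tef E-box at the first listed start, chr15:81802534-81802563, plus strand: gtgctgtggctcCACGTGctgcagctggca
Tef E-box at another start, chr15:81811264-81811293, plus strand: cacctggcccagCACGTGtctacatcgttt
Arntl RORE, chr7:113207528-113207556, plus strand: ggaaggcagAAAGTAGGTCAgggacggag

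The E-box stood in a window of 3 members, Per1, Cry1 and Tef, beside 8.09% of all 27025 genes with such windows (7.15% of all 32851 windows). The E'-box stood in 2 members, Cry1 and Cry2, beside 5.44% of all genes (4.68% of windows). Cry1 held both, 79 and 60 bases before its start. The RORE stood in Arntl alone among the members, after the start of its second listed transcript, beside 0.459% of all genes (0.384% of windows). Per3 was the member with the D-box, which was in 1.23% of all genes (1.06% of windows), and it held 2 copies of TTATGTAA 47 bases apart, at 205 and 158 bases before the start. The stretch of chr4:151044786-151044900 (minus strand) that holds both is shown because DBP and TEF, themselves members, are D-box factors.
Per3 promoter: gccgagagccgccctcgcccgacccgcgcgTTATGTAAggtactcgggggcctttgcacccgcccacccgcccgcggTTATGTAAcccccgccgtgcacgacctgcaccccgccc
No window of a member held the cAMP response element (2.03% of all genes, 1.79% of windows), and the windows of Clock, Npas2 and Dbp held none of the 5 motifs. A match is a description of these letters, and factor binding was not measured.

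The median signal of all probe sets was 20.02, 23.3 and 19.4 intensity units on replicates 1, 2 and 3. Background was set on each array at the 95th percentile of 76 receptor genes of smell and taste (olfactory, vomeronasal, trace-amine and taste families), which gave limits of 3.99, 4.10 and 4.08 on the log2 scale. A gene is called above background where its log2 signal passed these limits by limma's test of 1 group against 0 (one-sided), at an adjusted p below 0.05 by Benjamini-Hochberg over all 18118 other genes, and one that did not pass is not shown to be absent. By this rule 10567 genes, 58.3% of those tested, were above background. All 8 astrocyte markers (Gfap, Aqp4, S100b, Slc1a3, Slc1a2, Glul, Gja1 and Aldh1l1) passed, with means from 5.45 to 12.63, and so did 2 of 4 neuronal markers, Syt1 at 7.24 ± 0.12 and Rbfox3 at 6.66 ± 0.30 (SD, n = 3). None of 3 oligodendrocyte, 4 microglial, 4 endothelial and 4 fibroblast markers measured passed, the highest of these being Mbp at 4.55 ± 0.33. What part the neuronal transcripts have in the clock values was not tested.

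Of the 10 clock genes, 9 were above background, beside 58.3% of all genes tested, and Npas2 was the one that was not. The same 9 lay above the limit on each of the 3 arrays, as did 59.8% of all genes tested. The members were chosen with earlier results of these data known, so these shares stand beside the counts only as a description. The genes that passed were the activators Clock and Arntl, all 5 repressors and both output factors. The median distance of the 10 genes above the limit was 3.11 log2 units, beside 1.76 for all genes tested. Among genes above background alone, it was 3.27 for the 9 clock genes and 3.72 for all genes. These medians were not matched for the number of probe sets per gene, from which the brightest was taken. Every value below is log2 signal of the gene's brightest probe set, and a level cannot be set against that of another gene, because probe sets differ in brightness.

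**Figure D1:**
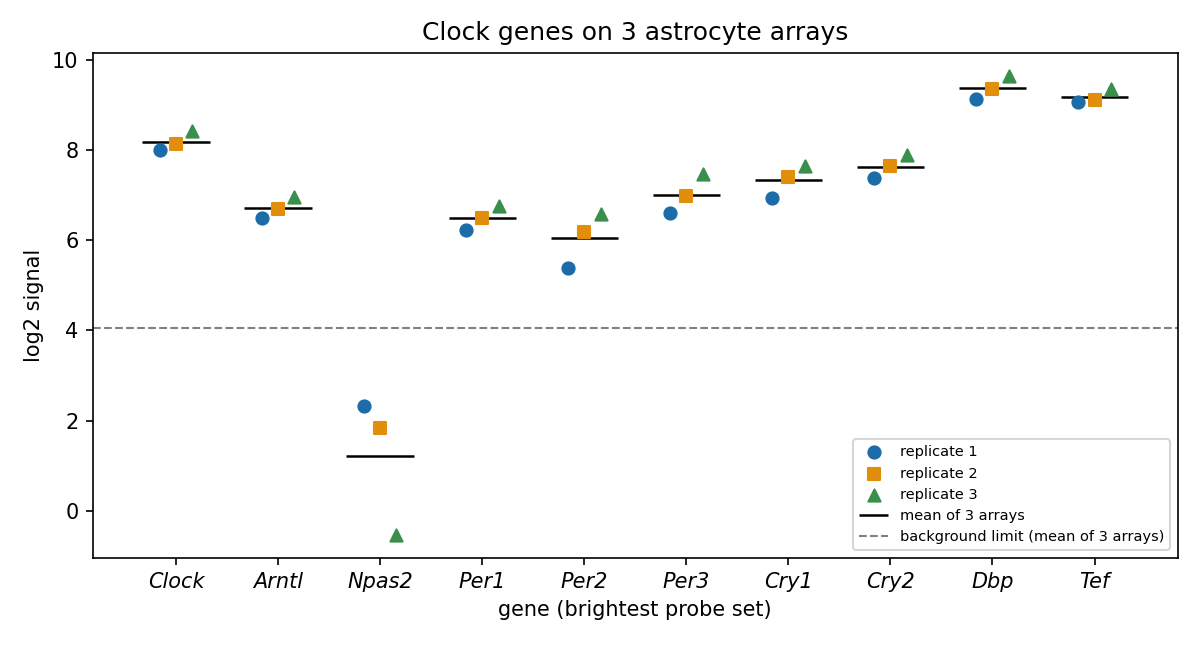
Log2 signal (y axis) of the brightest probe set of each of the 10 clock genes (x axis) on replicates 1, 2 and 3 (points), with the mean of the arrays as a bar and the mean background limit of 4.06 as a dashed line. On each array 9 genes lie above the line and Npas2 lies below it.

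Both partners of the core activator were above background, beside 58.3% of all genes tested. Clock, which encodes the bHLH-PAS subunit that pairs with BMAL1, was at 7.99, 8.13 and 8.42 on replicates 1, 2 and 3. Its mean of 8.18 ± 0.22 (SD, n = 3) lay 4.13 log2 units above the limit (SE 0.14, limma adjusted p = 5.69e-05). All 3 arrays were far above background, and replicate 3 was the highest. Arntl, which encodes BMAL1, the partner without which the loop does not run, was at 6.50, 6.69 and 6.97. Its mean of 6.72 ± 0.24 lay 2.66 above the limit (SE 0.15, limma adjusted p = 0.000168), again with every array above background. Npas2 encodes a close relative of CLOCK that can take its place beside BMAL1, chiefly in the forebrain. Its brightest probe set was at 2.33, 1.84 and -0.53, a mean of 1.21 ± 1.53, or -2.84 from the limit, and the other was at 0.11, 0.73 and 0.12. No array lifted either Npas2 probe set to the background limit.

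The 3 Period genes, whose proteins carry the time-keeping phosphorylation of the loop, were all above background, beside 58.3% of all genes tested. Per1 was at 6.22, 6.50 and 6.77, a mean of 6.50 ± 0.27 and 2.44 above the limit (SE 0.16, limma adjusted p = 0.000246). Per2 was at 5.38, 6.18 and 6.58, a mean of 6.05 ± 0.61. It passed by 1.99 log2 units (SE 0.27, limma adjusted p = 0.00262), and its arrays spanned 1.19 log2 units. Per3, a Period gene that the core loop can run without, was at 6.60, 6.97 and 7.46. Its mean of 7.01 ± 0.43 lay 2.95 above the limit (SE 0.21, limma adjusted p = 0.000332). At each of these brightest probe sets replicate 1 was the lowest array and replicate 3 the highest, as in 53.8% of all genes above background. Per2 passed on 2 of 3 probe sets and Per3 on 3 of 6. At 1417603_at of Per2 and 1458176_at of Per3, replicate 3 was the lowest array.

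The 2 cryptochromes, the strongest inhibitors of CLOCK and BMAL1, were also above background, beside 58.3% of all genes tested. Cry1 was at 6.95, 7.40 and 7.64, a mean of 7.33 ± 0.35 that lay 3.27 above the limit (SE 0.18, limma adjusted p = 0.000157). Cry2 was at 7.37, 7.64 and 7.89, a mean of 7.63 ± 0.26 and 3.58 above the limit (SE 0.15, limma adjusted p = 8.42e-05). For Cry1 and Cry2, as for Per1, the platform had a single probe set annotated to the gene alone, so these calls have no second probe set beside them.

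Both output factors were above the limit on every array, as were 59.8% of all genes tested. Dbp, a PAR bZIP activator that is driven directly by CLOCK and BMAL1, was at 9.14, 9.35 and 9.64. Its mean of 9.38 ± 0.25 was 5.32 above the limit (SE 0.15, limma adjusted p = 4.28e-05). Tef, a relative that binds the same D-box, was at 9.06, 9.10 and 9.35, a mean of 9.17 ± 0.16 and 5.11 above the limit (SE 0.13, limma adjusted p = 3.96e-05). Replicates 1 and 2 lay close together for Tef, and replicate 3 was higher.

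The probe sets of a gene did not always give the same answer. The 10 genes had 25 probe sets, of which 16 were above background when every probe set was tested on its own, beside 52.2% of all 34874 probe sets tested. Of the 6 detected genes with more than 1 probe set, 4 had at least 1 that did not pass, and 57.5% of all such genes did. Clock and Dbp were the members in which every one of several probe sets passed: Clock on 4 of 4, with means from 5.25 to 8.18, and Dbp on 2 of 2. Arntl passed on 1 of 2, the other (1457740_at) being at 4.02 ± 0.19, on the limit itself. Per2 passed on 2 of 3 and Per3 on 3 of 6.

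The 6 probe sets of Per3 ran from 7.01 at 1421087_at to 2.87 at 1460662_at. With the median of its probe sets in place of the brightest, Per3 lay 0.61 above the limit and was no longer called (limma adjusted p = 0.0569). Tef passed on 1 of 3 probe sets, and with the median of these it lay 1.89 above the limit (limma adjusted p = 0.0345). Its probe set 1450184_s_at was at 6.70, 6.60 and 3.81, so replicate 3 was the lowest array there and the highest at the brightest probe set. The second Dbp probe set, 1418174_at, was at 8.53, 8.39 and 8.42, with replicate 1 the highest, unlike its brightest probe set. Per3 probe set 1458176_at, which passed, was at 5.60, 5.56 and 4.93, and Per2 probe set 1417603_at, which did not, was at 4.28, 5.09 and 3.62, so replicate 3 was the lowest array at both. In all 6 detected genes with more than 1 probe set, at least 1 probe set ordered the arrays differently from the brightest. For Arntl, Per2 and Tef these were only probe sets that did not pass. The share of all genes with such a difference was not computed.

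**Figure D2:**
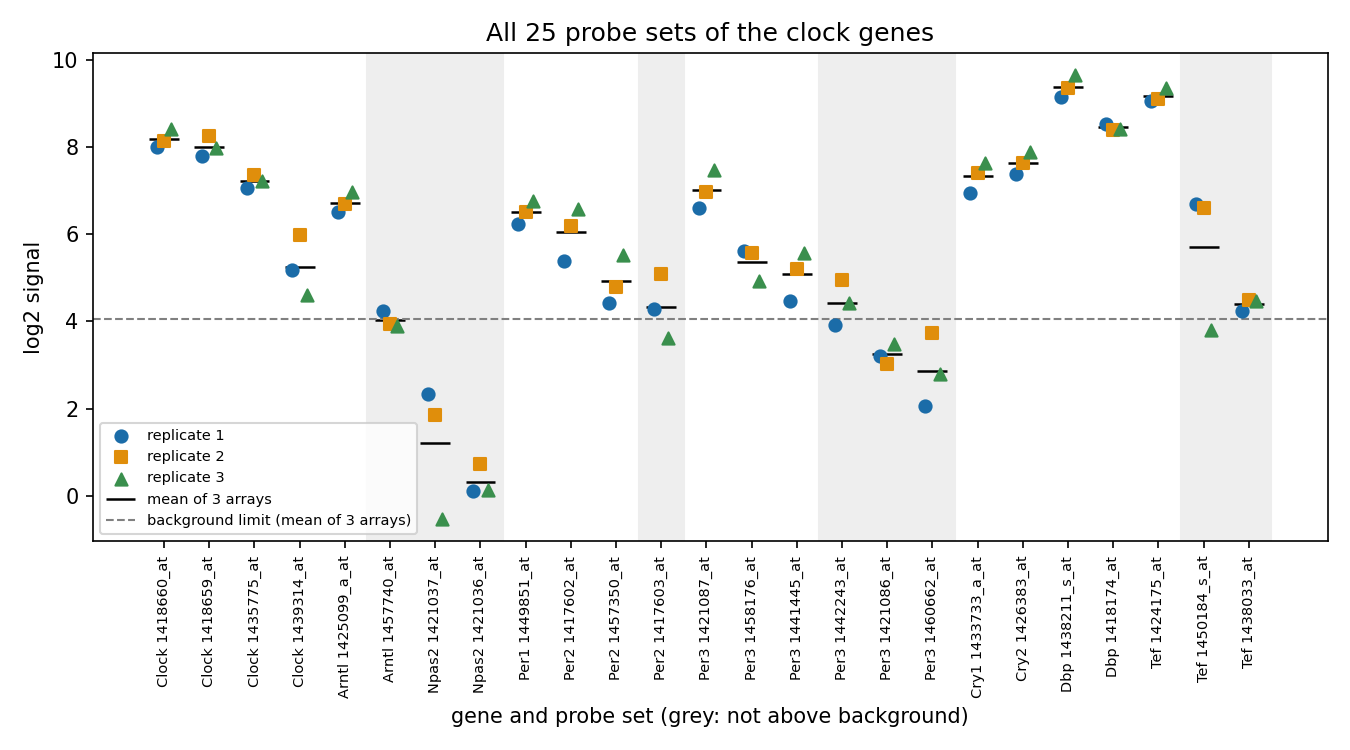
Log2 signal (y axis) of all 25 probe sets of the clock genes (x axis), with 1 point per array, the mean as a bar and the mean background limit as a dashed line. Grey bands mark the 9 probe sets that were not above background, which include both of Npas2, 3 of Per3 and 2 of Tef.

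The arrays were then compared within each gene. At the brightest probe set, all 9 clock genes above background were lowest on replicate 1 and highest on replicate 3, as were 53.8% of all genes above background. Of the 16 clock probe sets above background 11 had this order, beside 45.5% of all probe sets above background. The 5 without it were 3 of Clock, 1458176_at of Per3 and 1418174_at of Dbp. This pattern was looked at after the values were seen, and it is a description of 3 arrays with no test. Much of it was shared by the genes above background as a whole. Their median deviation from their own mean was -0.18, 0.02 and 0.16 log2 units on replicates 1, 2 and 3. The 6544 of them within the level range of the 9 clock genes gave -0.20, 0.01 and 0.19. For the 9 clock genes the median deviation was -0.26, -0.02 and 0.26. The median signal of all probe sets had another order, 20.02, 23.3 and 19.4 intensity units, with replicate 3 the lowest.

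With each array's median deviation over all genes taken off, 6 of the 9 still had replicate 1 lowest and replicate 3 highest (22.9% of all genes above background). These were Per1, Per2, Per3, Cry1, Cry2 and Dbp, and the remaining members were Clock, Arntl and Tef. At its brightest probe set each of the 5 repressor genes had this order after centring, whereas 1458176_at of Per3 and 1417603_at of Per2 had replicate 3 lowest as deposited. Dbp was read from 1438211_s_at, and its other probe set, 1418174_at, had replicate 1 highest as deposited. Per2 stood out most, at -0.48, 0.12 and 0.37 after this centring, followed by Per3 at -0.23, -0.05 and 0.29 and Cry1 at -0.20, 0.06 and 0.14. Arntl was at -0.04, -0.04 and 0.09, with replicates 1 and 2 level at this precision. Clock was at -0.01, -0.06 and 0.07, and Tef at 0.07, -0.08 and 0.01, so both moved by under 0.1 units on any array. After quantile normalization 6 of 9 had the order (30.0% of all genes). The median deviations of the 9 were then -0.10, -0.09 and 0.18, with replicates 1 and 2 nearly level. Those of all genes above background were -0.04, -0.04 and 0.09. With the median of each gene's probe sets, 5 of the 8 then above background had the order (40.2% of all genes). With the probe sets of less specific design (IDs ending in _s_at or _x_at) left out, 8 of 9 had it (52.0%).

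**Figure D3:**
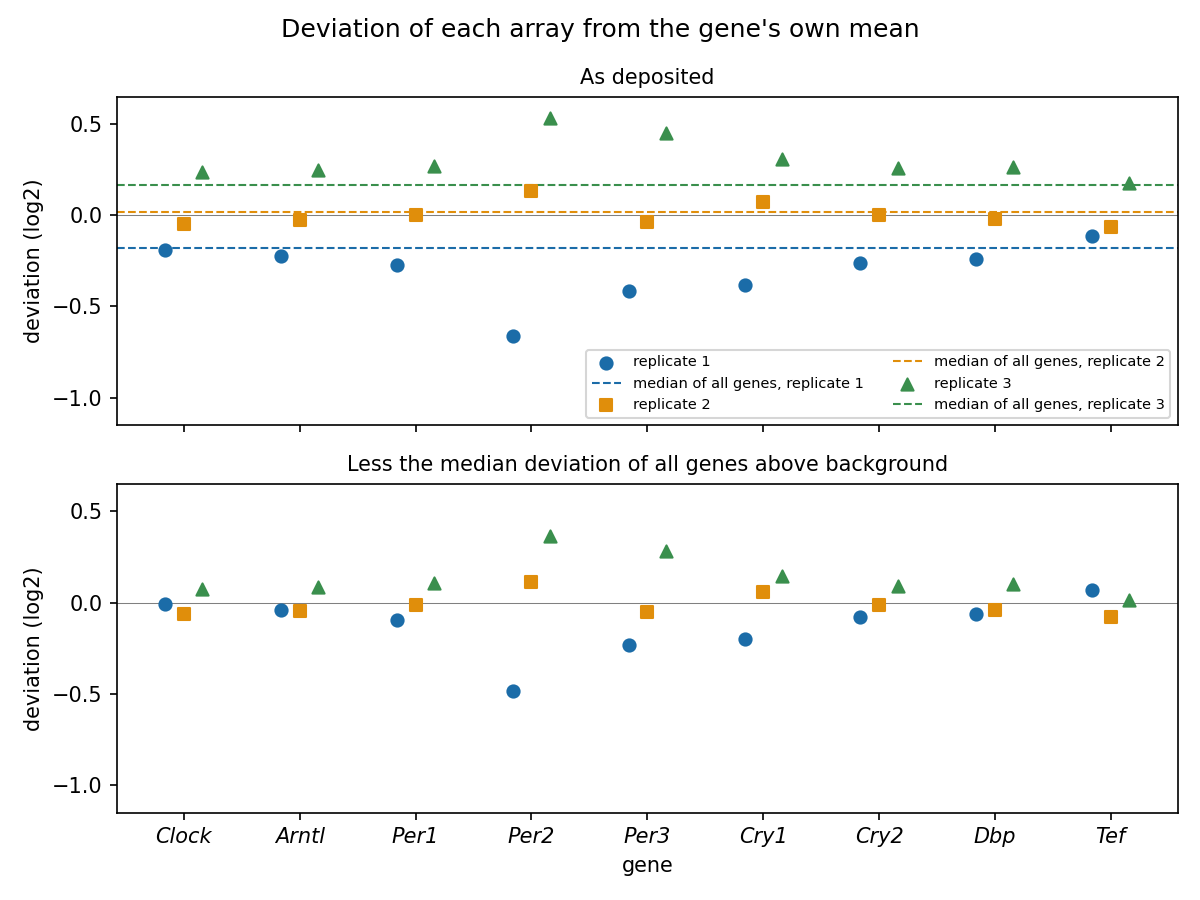
Deviation of each array from the gene's own mean (y axis, log2 units) for the 9 clock genes above background (x axis), with 1 point per replicate, as deposited (top, dashed lines giving the median of all genes above background on each array) and after that median was taken off (bottom). Per2 has the widest spread in both panels, from -0.66 to 0.53 at the top and from -0.48 to 0.37 at the bottom.

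The spread over arrays differed between members. The median SD of the 9 detected genes was 0.26 log2 units, beside 0.24 for all genes above background. Tef had the smallest SD, 0.16, and 27.5% of genes above background had a smaller one. Clock, Arntl, Per1, Cry2 and Dbp lay between 0.22 and 0.27. Cry1 (0.35), Per3 (0.43) and Per2 (0.61) had the largest, and 75.0%, 86.7% and 97.4% of genes above background had a smaller SD than these. These shares were not matched for signal: Per2 had the lowest mean signal of the 9 (6.05), and Tef one of the highest (9.17). All genes tested, which include those that did not pass, had a median SD of 0.35. The genes above background whose profile over the 3 arrays was most like that of Per2, each centred on its own mean, were Zfp930, Meig1 and Dffb, at root-mean-square distances of 0.0097, 0.015 and 0.016 log2 units. With 3 points per gene this is only a description.

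Other genes of the clock pathway were mostly above background as well. Of 25 measured with a probe set of their own, 18 passed, beside 58.3% of all genes tested. The median of the 25 was 2.00 log2 units above the limit (1.76 for all genes), again not matched for probe sets per gene. Nr1d2, Wee1 and Timeless passed on 1 of 2 probe sets and Btrc on 2 of 5. Fbxw11 passed on 3 of 5, Gsk3b on 4 of 6 and Rora on 7 of 9, and the others of the 18 on every probe set. Csnk1d, Fbxw11 and Nono were read from probe sets of less specific design. In the nuclear receptor arm, which closes a second loop on Arntl, 4 of 4 measured genes passed. Nr1d2, which encodes the repressor REV-ERB beta, was at 9.71, 9.96 and 10.08 (limma adjusted p = 3.84e-05). Nr1d1, which encodes REV-ERB alpha, was at 6.41, 6.07 and 5.49 (limma adjusted p = 0.00218), with replicate 1 the highest and replicate 3 the lowest. This order, which rests on a single probe set, was opposite to that of the 9 clock genes at their brightest probe sets. Of the 18 wider pathway genes above background, 4 had it (Nr1d1, Ciart, Hlf and Wee1), beside 6.52% of all genes above background. Rora and Rorb, which encode the rivals of the REV-ERB receptors at the RORE, were at 8.32 ± 0.15 and 6.05 ± 0.37.

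Among the repressors of CLOCK and BMAL1 outside the Per and Cry families, Bhlhe40 (DEC1) was at 7.64, 7.88 and 8.19 and passed. Ciart, also known as CHRONO, was at 4.73, 4.60 and 4.52 and passed by 0.56 log2 units (limma adjusted p = 0.0167). Bhlhe41 (DEC2) was at 4.25, 4.19 and 2.85 and did not pass. Hlf, the third PAR bZIP gene beside Dbp and Tef, was at 5.42, 5.37 and 5.28 and passed on both probe sets. Nfil3, which encodes the repressor that competes with them at the D-box, was at 5.24, 5.15 and 6.22 and passed, with replicate 3 about 1 log2 unit above the others. Arntl2, a relative of Arntl, was at 4.37 ± 0.45 and did not pass (limma adjusted p = 0.217).

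All 3 kinases and 2 of 3 ubiquitin ligase subunits reported here, which set the life span of PER and CRY, were above background. The share of all genes tested was 58.3%. The kinase genes Csnk1d, Csnk1e and Gsk3b were at 10.28 ± 0.34, 8.86 ± 0.10 and 9.46 ± 0.16. Of the ubiquitin ligase subunits, Btrc and Fbxw11, which act on PER, were at 7.36 ± 0.09 and 11.34 ± 0.28, and Fbxl21, which acts on CRY, was at 2.93 ± 0.54 and did not pass. Nono, an RNA-binding partner of PER, was at 11.86 ± 0.06, and Timeless was at 5.00 ± 0.36. The output genes Wee1, Nampt and Usp2, of mitotic entry, NAD synthesis and deubiquitination, were at 6.46 ± 0.12, 7.65 ± 0.12 and 8.97 ± 0.21. All 3 passed, beside the same 58.3%. Of the 18 wider pathway genes above background, 8 were lowest on replicate 1 and highest on replicate 3 as deposited (53.8% of all genes above background), and 1 after the arrays were centred (22.9%). The difference between these shares and those of the 9 clock genes was not tested.

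None of the 4 genes tied to the suprachiasmatic nucleus, the brain's central pacemaker, was above background. The peptide genes Avp, Vip and Prok2 were at 3.39 ± 0.43, 1.23 ± 1.27 and 2.53 ± 1.66, and the receptor gene Vipr2 was at 3.29 ± 0.32. No array of Avp, Vip, Prok2 or Vipr2 lay above the limit of 3.99 to 4.10. By limma 0 of these 4 passed, beside 58.3% of all genes tested, and 0 had an unadjusted p below 0.05.

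**Figure D4:**
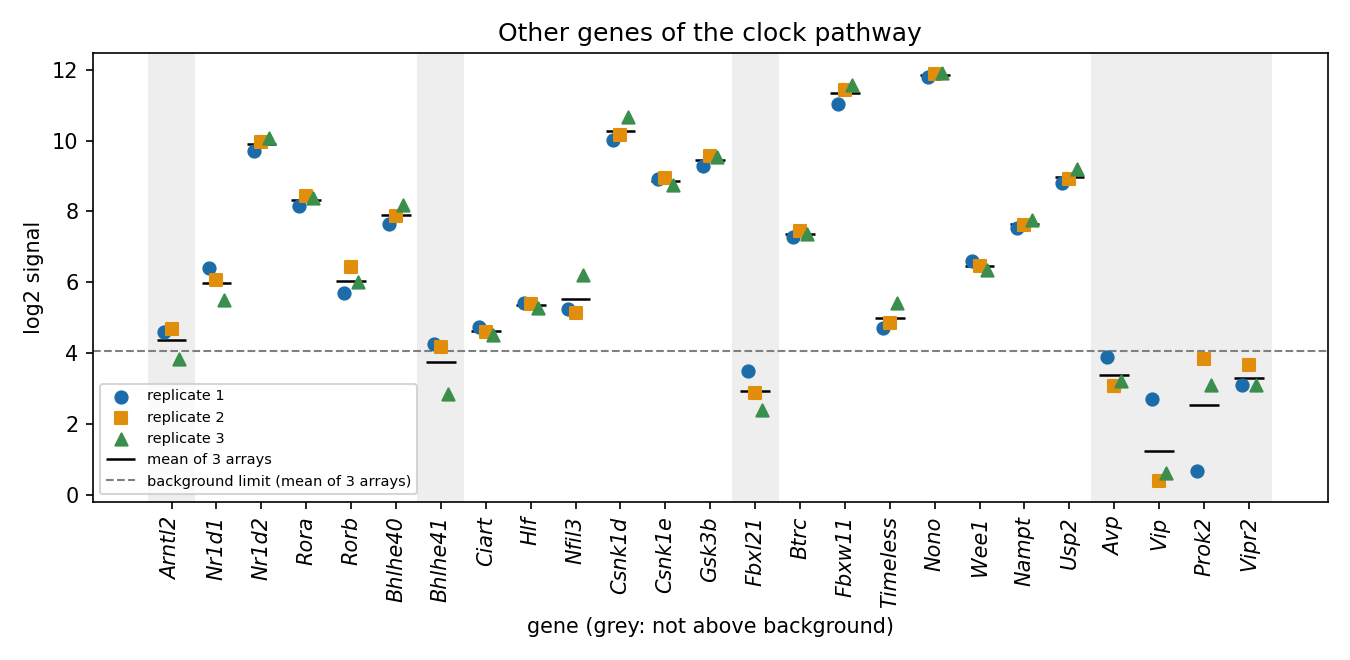
Log2 signal (y axis) of the brightest probe set of 25 other genes of the clock pathway (x axis) on each array, with the mean as a bar and the mean background limit as a dashed line. Grey bands mark the 7 genes that were not above background, among them Avp, Vip, Prok2 and Vipr2.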

How the data were processed

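The deposited values are linear intensities, 1 for each probe set on each array, made with GCOS 1.4 per the submitters' processing notes. The sources used here do not give its algorithm settings, scaling target or detection calls. Of 45101 probe sets, 34958 were annotated to 1 gene by the platform annotation, 932 to several (left out) and 9211 to none listed. Entrez identifiers were matched to the RefSeq table of GRCm38.p6, with 204 probe sets outside it.

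Log2 was taken of each deposited intensity with no pseudocount, and each gene was read from the probe set whose 3-array mean was highest. The test was limma 3.58.1 in R 4.3.3 (one-sample, one-sided, eBayes) on log2 signal minus each array's limit, adjusted over all genes, or over all probe sets where these were tested. At an unadjusted p below 0.05, 10711 genes passed. Named genes were all 10 members, the measured genes of a wider pathway list (some listed items are not reported here), the cell type markers and the 3 genes most like the most variable member. Members and lists were chosen with earlier results of these data known. Alternatives changed the limit, normalization, pseudocount, dim-signal filter, probe set rule and replicates.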

Additional observations from a re-analysis of the deposited data

How the results depend on the processing

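The 9 clock genes above background remained 9 under each alternative but one: taking the median over the probe sets of each gene gave 8, where Per3 lay 0.61 log2 units above the limit (adjusted p = 0.0569, limma). Over all genes that median gave 9155 of 18118 above background, against 10567 in the main setting. The dim-signal filter left Npas2 out, so its count was 9 of 9, beside 10676 of 15333 genes. Each of the remaining alternatives called 10021 to 10888 genes. Without each replicate in turn, the clock genes gave 9 each time, their probe sets 13 to 15 against 16, and the wider pathway genes 17 to 19 against 18. Across the other settings the probe sets gave 13 (limit at the 99th percentile) to 17, and the wider genes 16 to 18. The count of clock genes lowest on replicate 1 and highest on replicate 3 went from 9 to 5 when that median was taken. That setting and the other 3 for this count were chosen after seeing the data. No paired analysis was possible because the samples form 1 group. With 3 arrays and no detection calls, a gene near the limit can go unseen.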
